A study of Homo sapiens with 6 samples.

Results

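The genes described here encode the proteins of the cytosolic ribosome. Members were taken by symbol: RPL or RPS followed by a number and an optional A, X or L, together with RPLP0, RPLP1, RPLP2 and RPSA. The deposited table of 23686 genes held 82 such symbols, and 80 of them reached 10 reads in 2 or more of the 6 libraries, 47 of the large and 33 of the small subunit. They are 80 of the 14481 genes that passed this filter and were tested. The other 2, RPL3L and RPL10L, had at most 1 read in any library, and no value is given for them beyond that.

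RNA was sequenced from A427 and HCC15, established human non-small cell lung carcinoma lines with the genotype given as WT. Each line was transfected with a control siRNA named Tax, with LGR6 siRNA 2 or with LGR6 siRNA 4, and collected at 48 h, after culture in RPMI 1640 with 5% fetal bovine serum. LGR6, the siRNA target, is a receptor for R-spondins, which strengthen Wnt signalling. Each combination of line and siRNA is 1 library, so there are no replicates, and a line is 1 model of its tumour type. A p-value for an siRNA therefore measures how far its effect differed between the lines, not a spread between cultures. A p-value for HCC15 against A427 rests on that same spread, with libraries of different siRNAs standing in for replicates of a line. The comparisons of siRNA 2 and of siRNA 4 with control share the same 2 control libraries.

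A ribosome is built from ribosomal RNAs and about as many proteins as there are genes here, each needed in roughly equal number. In growing cells these genes give some of the most abundant messenger RNAs. Most of those messages begin with a C and a run of pyrimidines, the terminal oligopyrimidine or TOP tract. Through it the mTORC1 kinase and the RNA-binding protein LARP1 control the translation and the stability of these messages. Mutations in many of the genes cause Diamond-Blackfan anaemia, and free RPL5 and RPL11 bind MDM2, the ubiquitin ligase of p53.

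Promoter windows from RefSeq (GRCh38.p14) were found for 63 of the 80 members. In 50 of these (79.4%) a C followed by at least 4 pyrimidines on the sense strand began within 5 bases of the annotated start, against 21.1% of all 27305 promoters. These tracts ran from 5 to 22 bases, with a median of 11 bases. The windows below show 20 bases on either side of the annotated start, 5′ to 3′ on the gene's strand, with the tract in capitals. The first 6 are the members called lower with LGR6 siRNA 2. RPLP1 and RPS27L are set beside them as a member whose level barely moved and as a paralogue whose window has no such tract.
RPS28, chr19:8321476-8321515, plus strand: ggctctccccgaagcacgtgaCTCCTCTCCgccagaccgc
RPL13A, chr19:49487588-49487627, plus strand: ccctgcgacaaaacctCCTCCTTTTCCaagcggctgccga
RPL35A, chr3:197950170-197950209, plus strand: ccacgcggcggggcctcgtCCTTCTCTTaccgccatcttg
RPL10A, chr6:35468381-35468420, plus strand: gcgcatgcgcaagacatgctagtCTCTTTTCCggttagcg
RPS23, chr5:82278335-82278374, minus strand: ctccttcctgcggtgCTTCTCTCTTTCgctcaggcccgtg
RPL3, chr22:39319604-39319643, minus strand: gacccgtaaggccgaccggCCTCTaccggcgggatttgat
RPLP1, chr15:69452798-69452837, plus strand: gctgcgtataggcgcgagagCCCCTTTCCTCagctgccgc
RPS27L, chr15:63157458-63157497, minus strand: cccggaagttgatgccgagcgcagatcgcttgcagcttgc

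Other motifs were searched on both strands of the 300 bases from 250 before to 50 after the start. The ETS core CCGGAAG was in 34.9% of the members' windows and in 10.7% of all promoters. The YY1 core AAGATGG was in 12.7% against 6.06%, the cyclic AMP element TGACGTCA in 4.76% against 1.98%, and the NRF1 core in 1.59% against 1.36%. The TATA box TATAAA (7.94% against 12%) and the E box CACGTG (4.76% against 7.43%) were less frequent in the members' windows. The median GC content was 59.3% in the members' windows and 58.3% in all. These are matches of letters and show no binding.

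The libraries held 25546438 to 28987906 reads. In the order control siRNA, siRNA 2 and siRNA 4, LGR6 had 5, 0 and 0 reads in A427, so its silencing could hardly be measured there, and 257, 39 and 77 reads in HCC15. Of 6 epithelial markers, the summed TPM (transcript level per length, as a share of the library) was 989 to 1263 in A427 and 4228 to 9380 in HCC15. KRT7, KRT19 and CDH1 were at or below 3.52 TPM in every A427 library. EPCAM went the other way, at 403 to 457 TPM in A427 and 28 to 54 TPM in HCC15. In both lines the sum was lowest with siRNA 4, and in HCC15 it was highest with siRNA 2; the part of this in the results below was not tested. The 5 leukocyte markers summed to 1.45 to 3.33 TPM with CD3E at 0 everywhere, the 3 endothelial markers to 0 to 0.25 TPM, and the 5 fibroblast markers to 4.81 to 11.7 TPM with DCN at 0 everywhere.

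The members made up a large part of the messenger RNA in both lines. In the same order of siRNAs they took 18.6%, 16.5% and 19.9% of all TPM in A427, and 19.8%, 16.8% and 20.9% in HCC15. As a share of reads, which favours long genes, the same libraries gave 4.71%, 4.07% and 5.07%, then 5.06%, 4.12% and 5.57%. In both lines the siRNA 2 library was the lowest and the siRNA 4 library the highest. The mitochondrial ribosomal proteins, made for the other ribosome of the cell, held 0.791%, 0.826% and 0.814% of TPM in A427 and 0.904%, 0.862% and 0.937% in HCC15, with no common order.

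Although the ribosome needs its proteins in similar numbers, the TPM of the members spanned a wide range. The mean over the 6 libraries had a median of 2235 TPM and ran from 126 TPM for RPS27L to 7494 TPM for RPL41, which encodes a very short basic peptide of the large subunit. Means over 1000 TPM were found for 65 members, and 60 members were among the 100 genes with the highest mean TPM. After RPL41 came RPS27 (6357 TPM), RPS18 (5635 TPM), RPL37A (5465 TPM) and RPL39 (5314 TPM). This order is not firm. RPL41 ran from 5416 to 9214 TPM, RPS27 from 4351 to 8771, RPS18 from 4456 to 6921, RPL37A from 4168 to 7082 and RPL39 from 4135 to 6632, so all 5 ranges overlap. Across the 80 members the order of mean TPM in A427 and in HCC15 had a Spearman rho of 0.742, a description over genes that share libraries. The level of a short gene per length depends on the gene models and effective lengths used by the authors, and 74 of the 80 members were in the shortest 20% of all tested genes, judged by reads per TPM.

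With LGR6 siRNA 2, ribosomal protein messages were lower than with the control siRNA nearly throughout, mostly by a small amount. The log2 fold change was negative for 77 of 80 members, with a median of -0.28, against -0.01 for all genes tested. The interquartile range was -0.38 to -0.22 in the members and -0.26 to 0.21 in all genes. By edgeR's quasi-likelihood test with Benjamini-Hochberg adjustment over all genes, at an adjusted p under 0.05, 6 members (7.5%) were called lower and none higher. The background was 4.66% of genes called lower and 2.96% higher, so the count of calls is not far from the background, and 46 members (57.5%) had an unadjusted p under 0.05, against 24.6% of all genes. DESeq2 called 17 members (21.2%), against 9.91% of all genes in either direction. The medians were alike in the large subunit (-0.30, 4 of 47 called lower) and the small subunit (-0.28, 2 of 33 called lower).

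Of the called members, 2 fell far more than the rest. RPS28, a small protein near the mRNA exit of the small subunit and a Diamond-Blackfan anaemia gene, had CPM (reads relative to the TMM-scaled library size) of 171, 81.0 and 169 in A427, in the order control siRNA, siRNA 2, siRNA 4 used throughout, and 84.4, 24.6 and 92.5 in HCC15. In each line the siRNA 2 library was less than the other two by more than those differed from each other. The log2 fold change with siRNA 2 was -1.40 (SE 0.20, edgeR adjusted p = 0.0080). RPL13A, a large-subunit protein that also silences certain messages when released from the ribosome, had 555, 274 and 632 CPM in A427 and 546, 204 and 703 CPM in HCC15. Its log2 fold change with siRNA 2 was -1.21 (SE 0.15, edgeR adjusted p = 0.0058).

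The count for RPL13A leans on how its reads were divided from those of RPL13AP5, a near-identical pseudogene. RPL13AP5 had 685, 561 and 728 CPM in A427 and 808, 577 and 810 CPM in HCC15, and so was also lowest with siRNA 2. With the reads of both merged, an alternative chosen after the data were seen, the log2 fold change with siRNA 2 was -0.68 (SE 0.12, edgeR adjusted p = 0.0164). RPL13A therefore stayed called, at a smaller size. Without the A427 control library the adjusted p was 0.0617 for RPS28 and 0.0659 for RPL13A, and without the HCC15 control library it was 0.151 and 0.134, so that neither was then called.

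**Figure D1:**
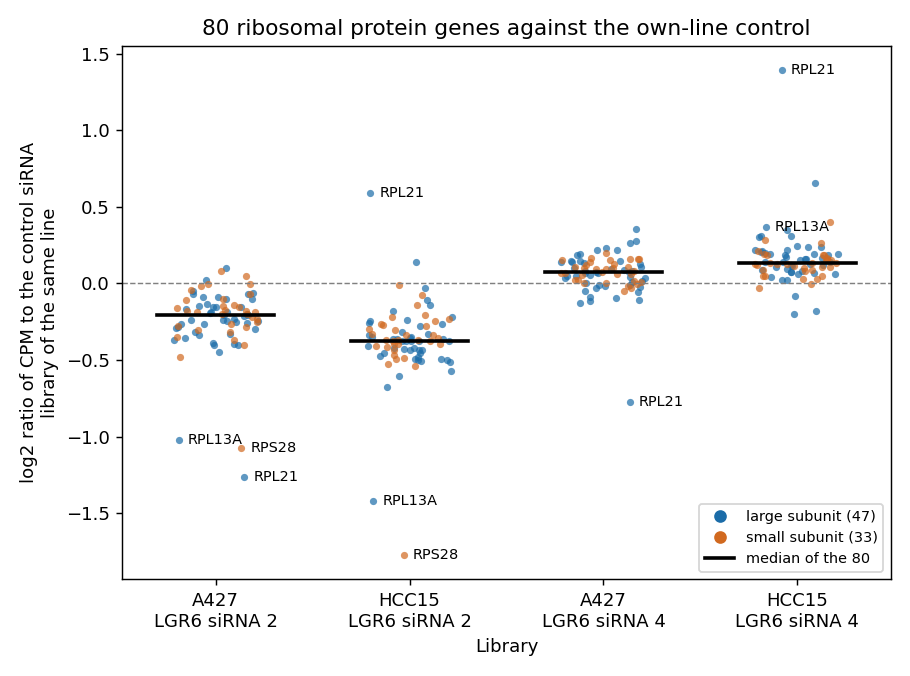
Each point is 1 of the 80 ribosomal protein genes; the y axis is the log2 ratio of its CPM in an LGR6 siRNA library to the control siRNA library of the same line, the x axis is the library, and the black bar is the median of the 80 genes. Medians are -0.20 (A427) and -0.37 (HCC15) with siRNA 2, and 0.07 and 0.14 with siRNA 4. With siRNA 2, RPS28 and RPL13A stand below the rest in HCC15. In A427 RPL21 (-1.27), RPS28 (-1.08) and RPL13A (-1.02) do so. RPL21 changes side between lines.

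The other 4 called members moved by under 1.5-fold. RPL35A, another Diamond-Blackfan anaemia gene, had 327, 248 and 343 CPM in A427 and 247, 154 and 277 CPM in HCC15, a log2 fold change of -0.53 with siRNA 2 (SE 0.13, edgeR adjusted p = 0.0424). RPL10A, at the stalk where used transfer RNAs leave, had 512, 376 and 507 CPM and then 418, 280 and 394 CPM, a log2 fold change of -0.51 (edgeR adjusted p = 0.0308). For both genes the siRNA 2 library was the lowest in its line, and for RPL10A the control and siRNA 4 libraries lay close together. RPS23, a protein of the decoding centre, changed by -0.47 on the log2 scale (edgeR adjusted p = 0.0455). RPL3, which reaches towards the peptidyl transferase centre, changed by -0.45 (edgeR adjusted p = 0.0493). RPS23, RPL3 and RPL35A were not called when all genes with at least 1 read were tested or when the members were left out of the library scaling. None of the 6 calls held without the A427 or the HCC15 control library, and most were lost without the HCC15 library of siRNA 2 or of siRNA 4. The share of all genes called was lower in each of these fits too. The members' median stayed negative, at -0.28, -0.23, -0.19 and -0.26 in that order.

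The remaining members of known role lay on either side of the median with siRNA 2, none past the threshold. RPL5 had a log2 fold change of -0.43 (SE 0.11, edgeR adjusted p = 0.0552), and was called lower with DESeq2, upper-quartile scaling, voom and log2(TPM + 1). RPL11 had one of -0.31 (SE 0.11, edgeR adjusted p = 0.135). The acidic stalk, which recruits the elongation factors and is formed by RPLP0 with RPLP1 and RPLP2, gave values of -0.13, -0.06 and -0.17. RPSA, the laminin-binding protein of the small subunit, gave -0.05. The most abundant members gave -0.35 for RPL41, -0.26 for RPS27, -0.28 for RPS18, -0.28 for RPL37A and -0.28 for RPL39. The 3 members with a positive value were RPS2 (0.04), RPL8 (0.04) and RPL39L (0.02), named after their values were seen. RPS2 had 1312, 1390 and 1445 CPM in A427 and 1646, 1635 and 1682 CPM in HCC15. Its siRNA 2 library was thus not below control in A427 and was almost level with it in HCC15. RPL10 gave -0.15, and RPS27L, a paralogue of RPS27 induced by p53, gave -0.38 (edgeR adjusted p = 0.132). Of the 15 Diamond-Blackfan anaemia genes, RPS28 and RPL35A were called lower, and the median of the 15 was -0.29. The share called lower was 7.5% in the 80 members and 4.66% in all genes.

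**Figure D2:**
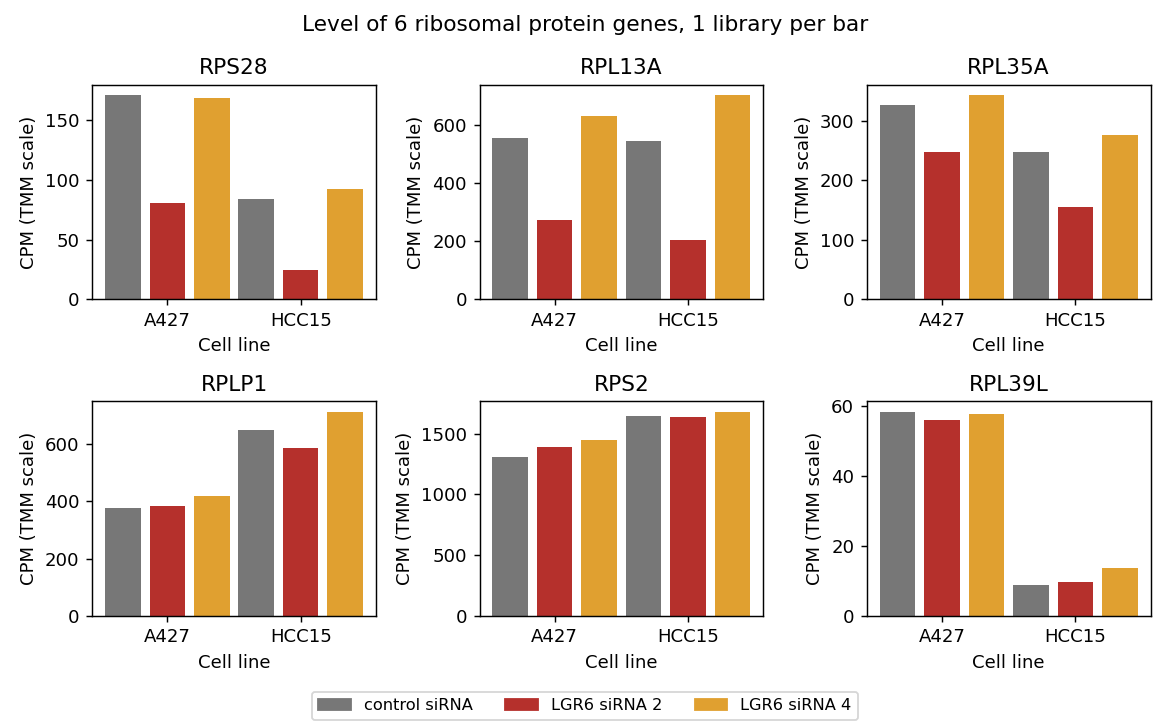
Bars are CPM on the TMM scale (y axis, from 0) in each of the 6 libraries, 1 panel per gene, grouped by line on the x axis and coloured by siRNA; there are no replicates and so no error bars. RPS28, RPL13A and RPL35A are lowest with siRNA 2 in both lines, RPS2 is nearly level across siRNAs, RPLP1 is higher in HCC15 (587 to 713 CPM) than in A427 (378 to 418 CPM), and RPL39L is higher in A427.

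The shift with siRNA 2 was found in each line against its own control. In A427 76 of 80 members were below the control library, with a median log2 ratio of -0.20. In HCC15 78 of 80 were below, with a median of -0.37. The lines share no library, and 74 members (92.5%) were below control in both, against 33.3% of the other genes. Members with larger drops in A427 tended to have larger drops in HCC15. Over the 80 genes, Pearson's r of the log2 ratios was 0.449 and Spearman's rho 0.677. Without RPS28, RPL13A and RPL21, whose ratios are far from the others, these were 0.723 and 0.721. The other 14401 genes had 0.446 and 0.462. These are descriptions over genes, which share libraries and depth.

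With LGR6 siRNA 4, ribosomal protein messages were slightly above the control siRNA, and none passed the test. The log2 fold change was positive for 73 of 80 members, with a median of 0.11, against -0.01 for all genes. With the HCC15 siRNA 4 library left out the median was 0.04, and with that of A427 left out 0.19. By edgeR no member was called in either direction, with a background of 4.58% of genes called higher and 7.95% lower, and DESeq2 also called none. An unadjusted p under 0.05 was found for 29.4% of all genes and for 4 members (5%): RPL34 (0.35), RPL10 (0.29), RPL8 (0.29) and RPL13 (0.27), given as log2 fold changes. RPL34 went from 159 CPM in the control to 204 CPM in A427 and from 135 to 172 CPM in HCC15 (edgeR adjusted p = 0.0930). The next smallest p-values belonged to RPL39 (0.23) and RPL28 (0.21). RPL3 and RPL5 had values below 0, at -0.15 and -0.16. Against their own control, 63 members were higher in A427 (median 0.07) and 75 in HCC15 (median 0.14). In both lines 61 members (76.2%) were higher, against 34.8% of the other genes. Over the 80 members Pearson's r between the lines was -0.307 and Spearman's rho 0.544. Without RPS28, RPL13A and RPL21, left out together, the 2 measures were 0.526 and 0.598. With siRNA 4, RPL21 had the lowest ratio of the 80 in A427 (-0.77) and the highest in HCC15 (1.39). RPS28 (-0.02 and 0.13) and RPL13A (0.19 and 0.37) lay nearer the other members.

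The sharpest contrast was between the siRNAs against the same target. All 80 members were higher with siRNA 4 than with siRNA 2, with a median log2 fold change of 0.38 against 0.00 for all genes. By edgeR 36 members (45%) were called higher and none lower, where the background was 7.7% of genes higher and 8.84% lower. The calls were 25 of 47 in the large subunit and 11 of 33 in the small subunit, with medians of 0.41 and 0.37. Without either control library 6 members (7.5%) were called, against 9.27% (A427 control left out) and 8.96% (HCC15 control left out) of all genes in either direction (16.5% with every library). Without the A427 siRNA 4 library 20 (25%) were called, against 15.5%. Without the HCC15 siRNA 2 or siRNA 4 library 2 (2.5%) were, RPS28 and RPL13A, against 4.96% and 3.05%. In those 4 fits that left out a control or an HCC15 siRNA library, the share of members called was thus no longer above that of all genes in either direction. The median stayed between 0.30 and 0.48 whichever library was left out.

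RPL13A (log2 fold change 1.49, SE 0.15, edgeR adjusted p = 0.0012) and RPS28 (1.46, SE 0.20, edgeR adjusted p = 0.0031) led this contrast. With its pseudogene merged RPL13A gave 0.83 (edgeR adjusted p = 0.0044). The next by size among those called were RPL34 (0.66), RPL35A (0.65), RPL28 (0.59) and RPL31 (0.59). RPL28 had 401, 319 and 467 CPM in A427 and 483, 357 and 554 CPM in HCC15, so siRNA 2 lay below and siRNA 4 above the control in both lines. RPL11 (0.50), RPL39 (0.52), RPL41 (0.48), RPL10 (0.45) and the paralogue RPS27L (0.59) were also called, whereas RPL5 gave 0.27 (edgeR adjusted p = 0.140). The stalk proteins RPLP0 (0.14), RPLP1 (0.20) and RPLP2 (0.19), RPSA (0.25), RPS27 (0.29), RPL3 (0.30), RPS18 (0.33), RPL37A (0.38) and RPL39L (0.26) were not past the threshold. The smallest difference, 0.05, was that of RPS2. Among the 15 Diamond-Blackfan anaemia genes 5 were called higher: RPL11, RPL26, RPL35A, RPS24 and RPS28. For comparison, 45% of the 80 members and 7.7% of all genes were called higher.

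When both LGR6 siRNAs were pooled against the controls, no ribosomal protein gene was called by edgeR, and none had an unadjusted p under 0.05. The median log2 fold change was -0.08. The background was 0% of all genes called in either direction, with 1512 genes at an unadjusted p under 0.05. DESeq2 called no member either, and 2.67% of all genes. Without the HCC15 siRNA 2 library the members' median was 0.02, and without the HCC15 siRNA 4 library it was -0.17. With the siRNA number as a block, which pairs the same reagent across lines, RPS28 alone was called lower (log2 fold change -0.67, edgeR adjusted p = 0.0412), and RPL13A gave -0.47 (edgeR adjusted p = 0.0588). The block called 8.96% of all genes, so 1 of 80 members is below the background. In the test of whether the response to LGR6 siRNAs differed between the lines, 0% of genes and no member were called by edgeR or DESeq2. An unadjusted p under 0.05 was found for 78 genes and 1 member, RPL21.

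RPL21 was the only member with ratios of over 0.5 in size on both sides of its controls. It had 164, 68.2 and 96.0 CPM in A427, and 54.3, 81.7 and 143 CPM in HCC15. The control was thus the highest library in A427 and the lowest in HCC15. The response in HCC15 minus that in A427 was 2.05 (SE 0.59, edgeR adjusted p = 1). Its pseudogene RPL21P28 held more reads than RPL21 in every library. With the reads of both merged, the values were 418, 311 and 425 CPM in A427 and 418, 291 and 426 CPM in HCC15, the same order in both lines. The merged difference between the lines was -0.04, and the merged gene was called lower with siRNA 2 (-0.47, edgeR adjusted p = 0.0380). Values of RPL21 alone therefore depend on how reads were assigned between the copies.

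Such sharing of reads touches other members. In 16 members the expected count was not a whole number in at least 1 library, and 16.2% to 18.8% of members per library had such values, against 5.75% to 6.29% of all genes. Among the 64 members with whole counts in every library, 5 (7.81%) were called lower with siRNA 2, close to the 7.62% of all genes called in either direction. With siRNA 4 against siRNA 2, 30 (46.9%) were called higher, against 16.5% of all genes in either direction. The medians of these 64 were -0.28 and 0.38. The 28 pseudogene rows of these genes held reads equal to 2.00% to 2.38% of the members' reads.

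The lines themselves differed at many ribosomal protein genes, in both directions and about as often as genes in general. In HCC15 33 members (41.2%) were called higher than in A427 and 25 (31.2%) lower by edgeR, where the background was 37.2% of genes higher and 39.3% lower. The median log2 fold change was 0.15, and 0.05 with upper-quartile scaling, which split the calls into 25 higher and 28 lower and put the median of all genes at -0.12. Without the HCC15 control library smaller shares of the members and of all genes were called, with the members' share below that of all genes. The members' median was then 0.17. The interquartile range was -0.36 to 0.47 in the members and wider, at -0.99 to 0.74, in all genes.

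Higher in HCC15 by over 2-fold were RPL30, RPL35, RPL9 and RPL7A among others. RPL30, of the large subunit, had 258, 218 and 276 CPM in A427 and 591, 486 and 688 CPM in HCC15, a log2 fold change of 1.22 (SE 0.09, edgeR adjusted p = 4.8e-06). RPL35, at the tunnel exit, gave 1.20, RPL9 1.19 and RPL7A 1.12. The A427 and HCC15 libraries did not overlap for RPL30, RPL35 or RPL9. Of the stalk, RPLP0 (0.82) and RPLP1 (0.72) were called higher, while RPLP2 gave 0.03 (edgeR adjusted p = 0.771). RPLP1 had 378, 383 and 418 CPM in A427 and 648, 587 and 713 CPM in HCC15. RPLP2 had 269, 254 and 266 CPM in A427 and 281, 235 and 293 CPM in HCC15, so only 1 of this pair of partners separated the lines. RPL5 (0.73) and RPL11 (0.29) were both called higher, and RPS18 (0.51) and RPL37A (0.61) as well. With upper-quartile scaling RPL11 was not past the threshold (adjusted p = 0.0699, edgeR).

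Lower in HCC15 was first of all RPL39L, the paralogue of RPL39 found mainly in testis and some cancers. It had 58.4, 56.0 and 57.6 CPM in A427 and 8.75, 9.64 and 13.8 CPM in HCC15, a log2 fold change of -2.44 (SE 0.15, edgeR adjusted p = 1.7e-06). Its partner RPL39, far more abundant at 527, 462 and 614 CPM in A427 and 501, 385 and 594 CPM in HCC15, gave -0.13 (edgeR adjusted p = 0.251). RPS27L (-0.44) and RPS27 (-0.72) were both called lower in HCC15. RPL3 (-0.41), RPSA (-0.39) and RPL41 (-0.29) were also called lower, and RPL10 gave -0.23 (edgeR adjusted p = 0.0567). RPL10 and RPL39 were called lower with upper-quartile scaling and with both limma fits on TPM, and RPL10 with voom as well. RPS21 had 239, 231 and 252 CPM in A427 and 103, 83.7 and 109 CPM in HCC15. RPS28 (-1.19), RPL23 (-1.09), RPL19 (-0.93) and RPL24 (-0.88) followed. RPL19 ranked 6 of the 80 by mean TPM in A427 (4313 TPM) and 40 in HCC15 (2121 TPM). Of the 15 Diamond-Blackfan anaemia genes, 5 were called higher and 6 lower in HCC15, near the shares of all genes (37.2% higher and 39.3% lower).

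**Figure D3:**
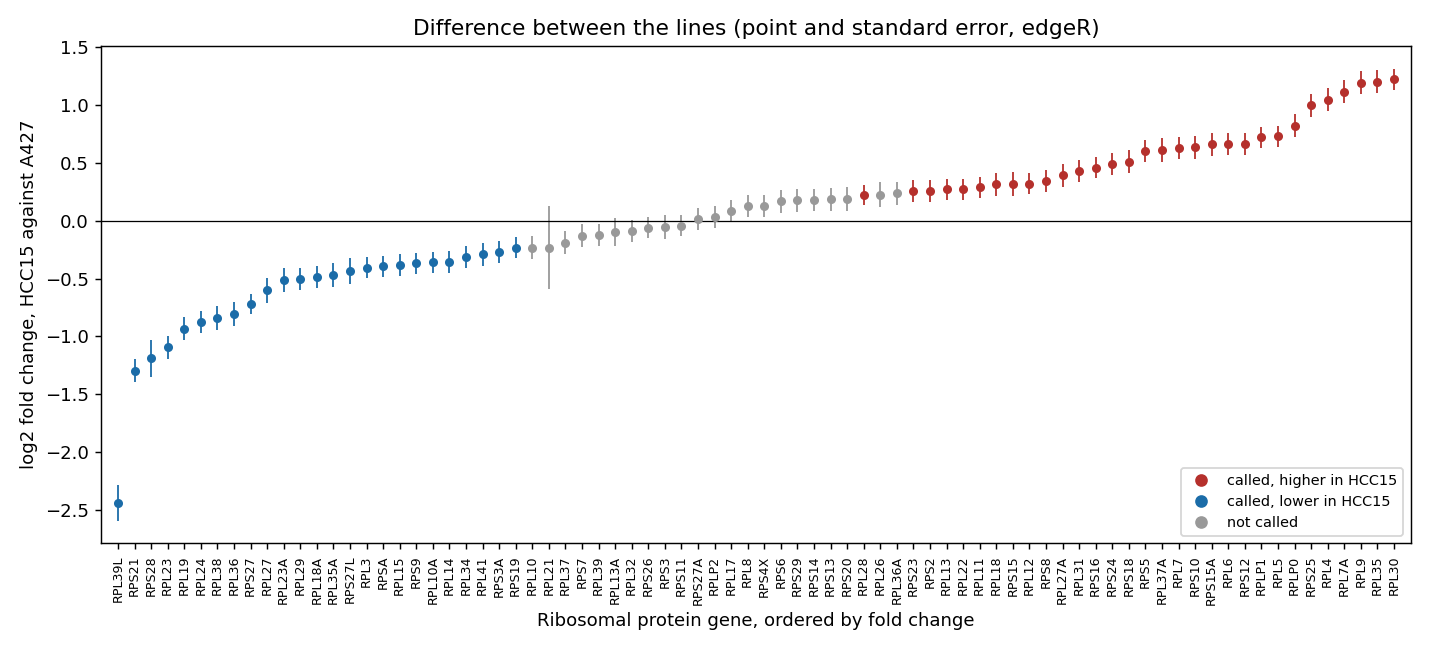
Points are edgeR log2 fold changes of HCC15 against A427 (y axis) for 78 of the 80 ribosomal protein genes ordered by size (x axis), with the standard error as a bar; red and blue mark genes called higher (31 of those plotted) and lower (25) in HCC15 and grey marks genes not called. The points run from -2.44 for RPL39L to 1.22 for RPL30, and RPL21 has the widest bar.

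Across both lines, other messages of the TOP class had medians on the same sides of 0 as the ribosomal proteins. Of 16 translation factors and related genes, 3 were called lower with siRNA 2 and none higher, with a median log2 fold change of -0.34. The share of all genes called lower was 4.66%. All 16 were below the own control with siRNA 2 in both lines. EIF4B, which helps unwind the leader of a message, had 1858, 1182 and 1649 CPM in A427 and 1950, 1272 and 1847 CPM in HCC15 (log2 fold change -0.63, edgeR adjusted p = 0.0177). EIF3L (-0.62) and TPT1 (-0.61) were the other two. With siRNA 4 against siRNA 2, 10 of the 16 were called higher (7.7% of all genes were), none lower, with a median of 0.48. EIF3E alone was called with siRNA 4 against control (0.45, edgeR adjusted p = 0.0380). The 10 small nucleolar RNA host genes, noncoding transcripts of which several carry TOP tracts, had a median of -0.45 with siRNA 2, where SNHG5 (-0.69) and ZFAS1 (-0.60) were called lower. With siRNA 4 all 10 were above the own control in A427 (median log2 ratio 0.26), but only 4 of 10 in HCC15 (median -0.005). Between the siRNAs 4 of these host genes were called higher with siRNA 4 and none lower, with a median of 0.55.

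Ribosomal proteins that the symbol rule leaves out had a smaller median drop with siRNA 2 across both lines, but not in HCC15. The 7 that were tested had a median of -0.19 with siRNA 2, none called. Against the own control the median was -0.16 in A427 (4 of 7 below) and -0.40 in HCC15 (5 of 7 below). The members had -0.20 and -0.37. GNB2L1, the gene of the scaffold RACK1 on the small subunit, was called higher with siRNA 4 than with siRNA 2 (0.47, edgeR adjusted p = 0.0350). Of 13 chaperones and import factors of ribosomal proteins none was called with siRNA 2. Their median was -0.26, and against the own control 0.01 in A427 and -0.29 in HCC15. With siRNA 4 against siRNA 2, 4 were called higher, where 7.7% of all genes were. Among them were BTF3 (0.48) and NACA (0.47) of the nascent chain complex.

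Genes that assemble the ribosome went different ways in the lines with siRNA 2. Against their own control, 27 of 32 ribosome biogenesis genes were higher in A427 (median log2 ratio 0.21) and 31 of 32 were lower in HCC15 (median -0.19). Across both lines their median was 0.03, with UTP20 called higher (0.49) and none lower. In the test of a different response in HCC15 and A427 the list had a median of -0.26, with none called. With siRNA 4 the median was -0.02, with 4 lower, led by GAR1 (-1.83), and FBL higher (0.56). In HCC15 23 of the 32 were called higher than in A427 and 1 lower, where 37.2% of all genes were higher and 39.3% lower. Of 14 genes of RNA polymerase I and its factor UBF, TWISTNB (-1.42) and POLR1D (-0.84) were called lower with siRNA 2, while the median was 0.17. The 76 mitochondrial ribosomal protein genes had medians of -0.03 with siRNA 2 and 0.08 with siRNA 4. With siRNA 2 the median against the own control was 0.06 in A427 and -0.17 in HCC15. With siRNA 2 MRPL38 was called higher and MRPL3 lower, and with siRNA 4 there were 2 higher and 5 lower. The 11 genes of ribosome quality control and hibernation had a median of 0.00 with siRNA 2, none called, and with siRNA 4 SERBP1 was called lower (-0.41).

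**Figure D4:**
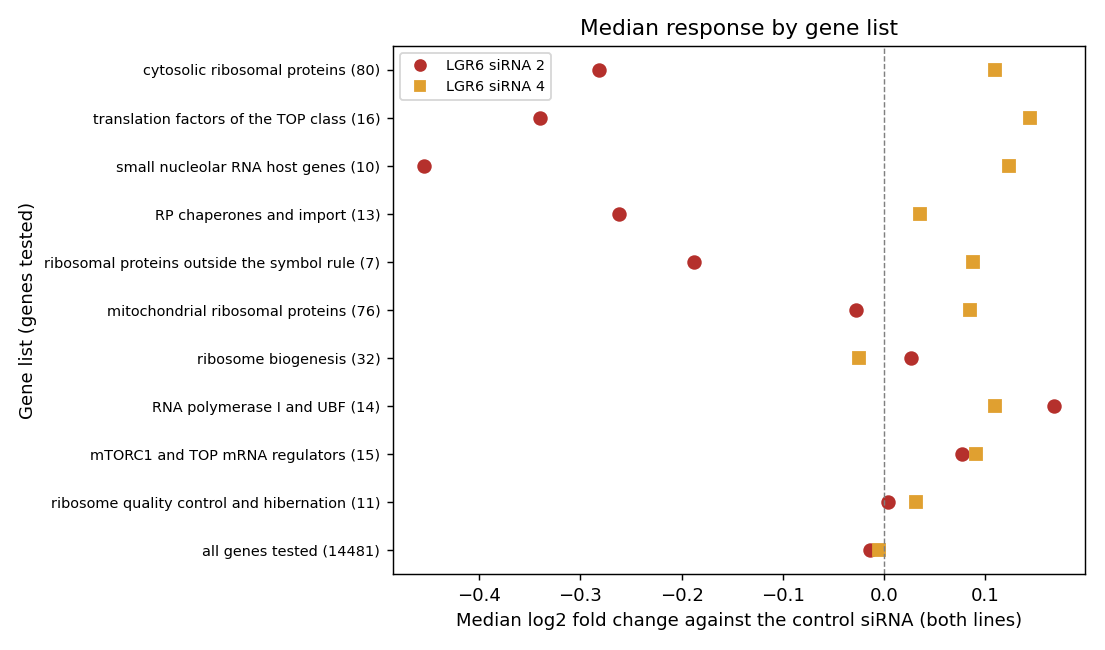
Each row is a gene list with the number of genes tested in brackets, and the x axis is the median log2 fold change against the control siRNA across both lines, as circles for siRNA 2 and squares for siRNA 4. Cytosolic ribosomal proteins (-0.28 and 0.11), TOP-class translation factors (-0.34 and 0.14) and small nucleolar RNA host genes (-0.45 and 0.12) lie on opposite sides of 0. For the host genes the siRNA 4 median against the own control was 0.26 in A427 and -0.005 in HCC15. Mitochondrial ribosomal proteins (-0.03 and 0.08) and ribosome biogenesis genes (0.03 and -0.02) lie near 0, and for both of these lists the siRNA 2 medians had opposite signs in the lines.

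Among 15 regulators of mTORC1 and of TOP messages, LARP1 was lowest with siRNA 2 and highest with siRNA 4 in both lines. Its log2 fold change with siRNA 2 was larger in size than the members' median and smaller than that of RPS28 (-1.40). It was also smaller than that of RPL13A alone (-1.21), but larger than that of RPL13A merged with its pseudogene (-0.68). LARP1 binds the cap and tract of TOP messages and protects them from decay. It had 592, 339 and 716 CPM in A427, and 724, 291 and 873 CPM in HCC15. It was called lower with siRNA 2 (log2 fold change -1.05, edgeR adjusted p = 0.0083) and gave 0.27 with siRNA 4 (edgeR adjusted p = 0.267). The difference between the siRNAs was 1.33 (edgeR adjusted p = 0.0018). Its part in the values of the ribosomal proteins was not tested. RHEB, the activator of mTORC1, was higher with both siRNAs (1.62 and 1.58), as was AKT1S1, an inhibitory partner of the complex (0.99 and 0.82). The S6 kinases RPS6KB1 (-0.63) and RPS6KB2 (-1.22) were called lower with siRNA 4.

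The shift was set beside short genes and, separately, beside genes of high level. Neither set was matched to the members in both length and level. The 2823 other genes in the shortest 20% by reads per TPM had a median log2 fold change of -0.06 with siRNA 2 and 0.10 between siRNA 4 and siRNA 2. The 192 other genes with a mean of at least 500 TPM had 0.00 and 0.11. Of these 192, 114 were in the shortest 20%, against 74 of the 80 members, whose median level was 2235 TPM. In both sets the values are closer to 0 than the members' -0.28 and 0.38. Members with a tract at the annotated start had a median of -0.31 with siRNA 2 (50 genes, -1.40 to -0.05), and those without one had -0.23 (13 genes, -0.39 to -0.04). Between the siRNAs the medians were 0.41 and 0.37. The range of those without a tract lay almost wholly inside that of those with one, which reached lower with siRNA 2 and higher between the siRNAs. Only starts within 5 bases of the annotated start were searched, so these 13 messages are not shown to lack a tract. Of the 13, RPL9 and RPL27 had a C and at least 4 pyrimidines further downstream. Each of the 6 called members whose windows are printed above carries a tract, but so did 79.4% of the 63 members with a window. RPLP1, which gave -0.06, carries a tract too.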

How the data were processed

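Total RNA (RNeasy with DNase) of 6 samples went into KAPA mRNA HyperPrep libraries, per the labels' protocols. The submitters' processing notes name the build hg19, the aligner STAR 2.5.3a, the quantifier RSEM 1.3.3 and, for read quality, FastQC 0.11.1. Which annotation was counted is not given in the sources used. The authors deposited expected counts for each gene, in which RSEM divides shared reads, and TPM. Members and gene lists were chosen with earlier results of these data known.

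Expected counts were rounded. Genes that reached 10 reads in 2 or more libraries were scaled by TMM and fitted with edgeR 4.0.16 (glmQLFit, glmQLFTest, R 4.3.3) with Benjamini-Hochberg adjustment over all genes. Each siRNA, the siRNAs against each other and the lines used a fit of line plus siRNA (2 residual degrees of freedom), both siRNAs against control a fit of line plus arm (3), and the difference between lines a fit of line by arm (2). Per the labels, a given siRNA number is 1 reagent used on A427 and HCC15 alike, which pairs the libraries; the correlation of the siRNA 2 ratios across lines is in the report. Ratios to the own control added 0.1 CPM to each value. No 2 libraries agreed within sampling noise (lowest chi-square per degree of freedom 57). Library totals are in the report, and counting error is part of the standard errors given.

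Named in each comparison were up to 6 called members per direction by size, or the 6 with the smallest p where fewer than 4 passed. RPLP0, RPLP1, RPLP2, RPSA, RPL5, RPL11, 4 paralogues with their partners and the 5 members with the highest mean TPM were always named. In gene lists up to 4 called genes by size, or 2 by p, could be named. The fits were tested on simulated counts of 14481 genes, where 86% of genes changed 2-fold and 100% of those changed 4-fold were recovered for siRNA 2 against control, and 20% and 85% for the difference between lines. Changes under 2-fold, as most members had with siRNA 2, were not simulated, so these rates do not cover them. Alternatives were DESeq2 1.42.0, upper-quartile scaling, scaling without the members, all genes with at least 1 read, limma 3.58.1 (voom, and log2 of TPM plus 1 or 0.1 for genes of at least 1 TPM), each library left out, and the block. Merging near-identical copies and keeping members with whole counts were added after the data were seen. Some members are counted but not reported by name here.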

Additional observations from a re-analysis of the deposited data

Results flagged for a closer look

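For RPL21 the LGR6 siRNA libraries lay below the control in A427 and above it in HCC15, and the response in HCC15 minus that in A427 was 2.05 on the log2 scale (edgeR adjusted p = 1, so the difference did not pass the test). With the reads of RPL21P28 added it was -0.04.

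For RPL39L both LGR6 siRNA libraries lay slightly below the control in A427 (log2 ratios -0.06 and -0.02) and above it in HCC15 (0.14 and 0.66). The difference between the lines was 0.46 (SE 0.43, edgeR adjusted p = 1) and did not pass the test either. The HCC15 level was 8.75 to 13.8 CPM, the lowest of any member in that line.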

How the results depend on the processing

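The number of members called lower with siRNA 2 was 6, and it was 17 with DESeq2 (21.2% of members, 9.91% of all genes in either direction), 3 with scaling without the members (3.75% and 7.53%), 3 with all genes of at least 1 read (3.66% and 5.3%) and 13 with log2(TPM + 1) (16.2% and 5.94%), where the cause was not tested. Leaving out 1 library gave 0 to 6, with fewer samples in the fit; the lone library of an arm is then assumed to vary like the others. For siRNA 4 against control the range was 0 to 1, the 1 being without the A427 control library, for siRNA 4 against siRNA 2 it was 2 to 36, and for HCC15 against A427 38 to 59. For both siRNAs against control it was 0 to 0, and the replicate block called 1. The block changed no other call, since the other fits hold the siRNA number already or test the lines within it. The difference between the lines could not be fitted without either control library, and was 0 to 0 without the others. For each siRNA, for the siRNAs against each other and for the lines, the share of all genes called also moved when 1 library was left out. Under every scaling and test the member median stayed below 0 with siRNA 2 (-0.28 to -0.21) and above 0 between the siRNAs (0.30 to 0.39). No named value reversed its direction with a call. Without replicates, changes of the size of most members here sit near the threshold.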
